A study of Mus musculus with 88 samples.

Results

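Transcripts of 7 transcription factors known for oocyte growth were followed through single-oocyte transcriptomes: Nobox, Figla, Lhx8, Sohlh1, Sohlh2, Tbpl2 and Taf4b. Of the 7 genes, 6 had a feature of their own among the 38540 features of the count table, and 5 of those 6 had a mean of 10 or more counts per oocyte. A feature was taken for a gene where the study named it so or, otherwise, where it shared its strand and had the best overlap of spans with the GENCODE M21 gene, with a Jaccard index of 0.3 or more (shared bases over bases covered by either). The oocytes were fully grown germinal vesicle (GV) oocytes, still arrested in prophase of meiosis I, from ovaries of virgin C57BL/6Babr females. The young group held 42 oocytes from 3 mice aged 12 weeks, and the old group held 46 oocytes from 7 mice aged 44 to 54 weeks. The labels name no treatment or engineered allele. The study had assigned 67 oocytes to the non-surrounded nucleolus (NSN) chromatin configuration and 20 to the surrounded nucleolus (SN) configuration, which gave 30 young NSN, 12 young SN, 37 old NSN and 8 old SN oocytes. These classes were inferred from expression and the chromatin of the oocytes was not examined, so NSN and SN name transcriptional classes throughout. Old oocyte 48A had no configuration and was left out of the values for the 87 others. The study's methods describe the exclusion of a single oocyte as an outlier in a distance matrix, without naming it.

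These genes act at different steps of one developmental sequence. SOHLH1 and SOHLH2 are basic helix-loop-helix (bHLH) proteins of germ cells and primordial follicle oocytes, and FIGLA is a bHLH protein that activates the zona pellucida genes from E-box sites. NOBOX and LHX8 are homeodomain proteins, LHX8 of the LIM class, and loss of either in mice blocks follicles early and leads to loss of oocytes. TBPL2 replaces the TATA-binding protein TBP in transcription of growing mouse oocytes, and TAF4B is a gonad-enriched counterpart of the TFIID subunit TAF4. Oocytes with NSN chromatin are known to transcribe actively and those with SN chromatin to be largely silent; neither state was measured in these oocytes.

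The features lay on GRCm38 and were compared with GENCODE M21 genes. The Nobox feature spanned chr6:43302170-43310109 on the minus strand and had the lowest overlap of the 6, with a Jaccard index of 0.741, since it ran past the annotated gene at both ends. The Lhx8 feature lay at chr3:154303721-154330167 (minus strand, Jaccard index 0.886) and the Sohlh2 feature at chr3:55181818-55209957 (plus strand, 0.993). The Sohlh1 feature lay at chr2:25842995-25847340 (minus strand, 0.979), the Tbpl2 feature at chr2:24071367-24096806 (minus strand, 0.978) and the Taf4b feature at chr18:14783197-14901640 (plus strand, 0.989). A single feature on the opposite strand overlapped that of Nobox, with a mean of 12.8 counts per oocyte against 1065 for Nobox. Whether counting used strand is not stated in the sources used here, and reads of that pair cannot be told apart. The other 5 had no overlapping feature on the opposite strand.

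Figla could not be measured apart from its neighbour. A single plus-strand feature at chr6:86016157-86124404 began 14 bases upstream of the annotated Figla start, covered 100% of the Figla gene and ran on through Add2, a membrane skeleton gene, whose name it carried by the rule (Jaccard index 0.884 with Add2 and 0.0446 with Figla). The joint feature stood at 50.9 CPM (counts per 1000000 counts of a library) in young NSN, 62.5 in young SN, 46.8 in old NSN and 63.1 in old SN oocytes. How its reads divide between the genes was not measured, and Figla is given no level.

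The RefSeq promoters of the 4 members with an own level outside Taf4b are shown, and whether their sites bear on the levels was not tested. Each runs from 250 bases before to 50 bases after the RefSeq start (GRCm38.p6), 5′ to 3′ on the gene's strand. Capitals mark E-boxes (CANNTG, which reads as CANNTG on both strands), the class of site that bHLH proteins bind.
Nobox, chr6:43309505-43309804, minus strand: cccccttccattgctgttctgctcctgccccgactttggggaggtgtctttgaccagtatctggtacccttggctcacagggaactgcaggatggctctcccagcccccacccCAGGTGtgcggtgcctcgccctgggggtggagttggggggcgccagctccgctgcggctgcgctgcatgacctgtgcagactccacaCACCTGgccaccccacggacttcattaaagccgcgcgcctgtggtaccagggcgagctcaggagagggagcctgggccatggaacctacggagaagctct
Lhx8, chr3:154330511-154330810, minus strand: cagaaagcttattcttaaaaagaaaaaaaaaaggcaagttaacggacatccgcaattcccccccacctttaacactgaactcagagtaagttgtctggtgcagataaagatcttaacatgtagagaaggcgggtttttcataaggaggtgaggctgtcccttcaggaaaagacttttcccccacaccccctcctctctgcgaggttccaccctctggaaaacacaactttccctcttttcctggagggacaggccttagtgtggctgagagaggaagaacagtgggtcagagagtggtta
Tbpl2, chr2:24096546-24096845, minus strand: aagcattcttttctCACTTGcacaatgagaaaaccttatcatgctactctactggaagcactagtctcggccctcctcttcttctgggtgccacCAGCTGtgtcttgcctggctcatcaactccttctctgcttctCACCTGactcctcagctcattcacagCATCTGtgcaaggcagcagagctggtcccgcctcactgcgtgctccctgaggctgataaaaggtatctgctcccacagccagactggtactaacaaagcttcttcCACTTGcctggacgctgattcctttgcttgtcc
Sohlh2, chr3:55181794-55182093, plus strand: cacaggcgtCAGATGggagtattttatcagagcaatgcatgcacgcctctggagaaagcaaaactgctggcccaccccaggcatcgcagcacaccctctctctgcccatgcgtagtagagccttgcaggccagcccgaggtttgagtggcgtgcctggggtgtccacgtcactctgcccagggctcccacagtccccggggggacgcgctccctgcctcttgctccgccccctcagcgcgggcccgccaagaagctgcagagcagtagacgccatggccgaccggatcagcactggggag

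The promoter of Nobox held 2 E-boxes, that of Lhx8 0, that of Tbpl2 5 and that of Sohlh2 1. Those of Figla and Sohlh1, read in the same table, held 4 and 5. An E-box was present in 72.3% of all 32851 promoters of the same length, and 3 or more in 17.6%. The homeodomain core TAATTG, searched on both strands, was absent from all 6 windows and present in 8.0% of all promoters, and TATAAA was likewise absent from the 6 and present in 13.6%. The 5′ end of the Nobox feature lay 555 bases upstream of the RefSeq start, and thus outside the window shown. That of Tbpl2 lay 211, that of Sohlh2 226 and that of Sohlh1 92 bases upstream, while that of Lhx8 lay 393 bases inside the gene. The RefSeq start of Figla lay inside the GENCODE gene, 1020 bases past its annotated start and 1034 bases past the 5′ end of the joint feature. The table of promoters used here held no entry for Taf4b.

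Total counts ranged from 976456 to 8231046 per oocyte, with medians of 3067942.5 in young NSN, 2787508.5 in young SN, 2385433 in old NSN and 2235633 in old SN oocytes. Levels are pooled CPM, the summed counts of a group over its summed total, with exact Poisson 95% intervals, and ratios carry exact conditional binomial 95% intervals. The labels name no mouse for any oocyte, so each age is 1 sample, no test between groups was made, and intervals cover counting error only. Oocyte markers (Ddx4, Dazl, Zp3, Gdf9, Nlrp5 and Zar1) summed to between 5599 and 12954 CPM per oocyte, whereas 10 granulosa markers summed to between 27 and 126 CPM. The granulosa sum had medians of 44.9 CPM in young NSN, 47.2 in young SN, 41 in old NSN and 48.8 in old SN oocytes. Most of it came from Nr5a2 and Kitl, with counts in all 87 oocytes, and Inha, with counts in 75 and up to 54.1 CPM, while Foxl2 had counts in 6 and Wt1 in 11. Kitl stood at 11.5 CPM in young NSN, 13.5 in young SN, 10.0 in old NSN and 17.4 in old SN oocytes. The 3 other ovarian markers summed to between 38.1 and 99.8 CPM per oocyte, with medians of 66.9, 67.3, 62.2 and 64.9 CPM in the same order of groups; Pecam1 had counts in all 87 oocytes, Dcn in 54 and Col1a1 in none. The part of carried-over cells in the results was not tested. CPM gives a transcript's share of the counted reads, and RNA content per oocyte was not measured.

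Of the 6 members with a feature, 5 were detected in every one of the 87 oocytes, also after each library was thinned to 900000 counts. Levels were compared between members per kilobase of annotated exon. Nobox was the most abundant per length, at 187 CPM per kilobase, followed by Lhx8 at 57.3, Tbpl2 at 10.4, Taf4b at 7.09 and Sohlh2 at 4.06. Nobox ranged from 115 to 298 CPM per kilobase over the oocytes and Lhx8 from 34.5 to 73.7, so the oocytes did not overlap between these genes. Lhx8 also stood above every Tbpl2 value (4.85 to 32.2 CPM per kilobase). Tbpl2, Taf4b (2.88 to 13.8) and Sohlh2 (1.24 to 9.20) overlapped, and their order is that of the pooled levels alone. The lengths are those of annotated exons and may differ from the transcripts of the oocyte.

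Sohlh1, the bHLH partner of SOHLH2 in early oocytes, was close to undetected. It had 11 counts in all, 10 in young and 1 in old oocytes. A count was present in 6 of 42 young oocytes, or 14.3% (exact binomial 95% interval 5.43% to 28.5%), and in 1 of 45 old oocytes, or 2.22% (0.0562% to 11.8%). Of the 10 young counts, 5 came from 1 SN oocyte, the deepest library. After thinning to 900000 counts, 2 of 42 young and 0 of 45 old oocytes had a count, and 0 of 45 allows a share of up to 7.87%. The level was 0.0750 CPM in young (95% interval 0.0360 to 0.138) and 0.00883 CPM in old oocytes (2.24e-04 to 0.0492), and no ratio is given at this depth.

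**Figure D1:**
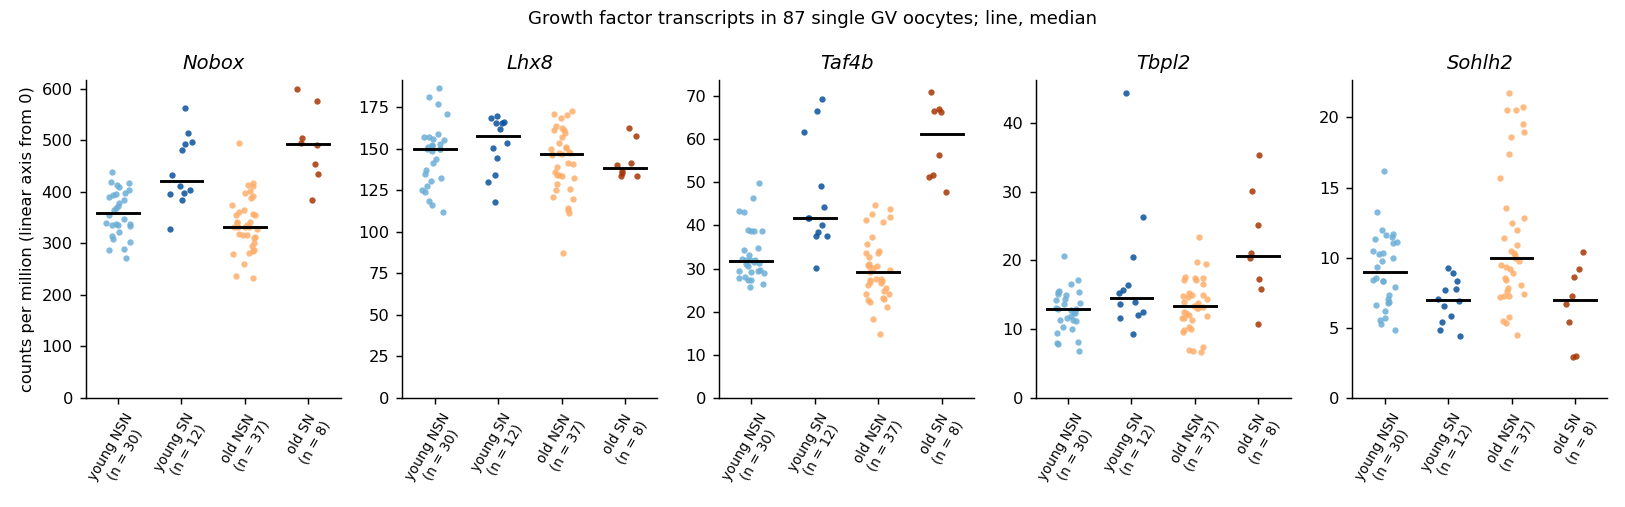
CPM (linear axes from 0) of the 5 members with a level, 1 panel each; each point is 1 of 87 oocytes in the 4 groups by age and configuration, and lines are medians. The 8 old SN oocytes lie above all 37 old NSN oocytes for Taf4b, the SN medians of Nobox and Tbpl2 are above the NSN medians in both ages, Lhx8 is level, and Sohlh2 has 8 old NSN oocytes above every young oocyte.

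Between configurations, the members went in different directions. Taf4b, Tbpl2 and Nobox were higher in SN than in NSN oocytes in both ages, Lhx8 was nearly level and Sohlh2 was lower in SN oocytes. A ratio is described as past the fold limit where 1 group was at least 25% above the other (0.32 on the log2 scale). In young oocytes 3 of 5 members were past the limit, each higher in SN, where 15.3% of the 12408 features that averaged 10 or more counts were past it in either direction. In old oocytes 4 of 5 were past it, 3 higher and 1 lower in SN, against 34.7% of features. The shares depend on the level: among features with a mean of 100 or more counts, as Nobox, Lhx8 and Taf4b had, they were 6.43% in young and 24.6% in old oocytes. The configuration had been assigned from the same transcriptomes, by genes reported as overexpressed in SN oocytes, so these differences are a description. Whether a member was among those genes was not tested.

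Taf4b differed the most among the members. It had a lowest, median and highest value of 14.8, 29.1 and 44.7 CPM in old NSN oocytes and of 47.8, 61.3 and 71.0 CPM in old SN oocytes. All 8 old SN oocytes thus stood above all 37 old NSN oocytes, a separation that 0.443% of the features showed in one direction or the other. The pooled levels were 30.4 CPM (29.3 to 31.6) and 61.3 CPM (57.9 to 64.8), a log2 ratio of 1.01 (0.91 to 1.11) or 2.01-fold, and 3.40% of features had a larger ratio. Without any single oocyte the log2 ratio stayed between 0.97 and 1.05.

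In young oocytes Taf4b was less far apart. The lowest, median and highest values were 25.8, 31.7 and 49.9 CPM in NSN and 30.1, 41.7 and 69.3 CPM in SN oocytes, and 3 of 12 SN oocytes exceeded every NSN oocyte. No feature but 1 (0.00806%) separated the young configurations entirely. The log2 ratio of pooled levels was 0.44 (0.36 to 0.53), or 1.36-fold. It was 0.28 without the run of young oocytes numbered 17 to 24, and was then below the fold limit.

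Tbpl2, the TBP-family member, went in the same direction. In old oocytes it had a lowest, median and highest value of 6.69, 13.3 and 23.4 CPM in NSN and of 10.7, 20.7 and 35.3 CPM in SN oocytes, and 3 of 8 SN oocytes exceeded every NSN oocyte. The log2 ratio was 0.65 (0.49 to 0.81), or 1.57-fold, and lay between 0.51 and 0.78 without any 1 oocyte. In young oocytes the values were 6.77, 12.9 and 20.7 CPM in NSN and 9.33, 14.5 and 44.4 CPM in SN oocytes, with a log2 ratio of 0.39 (0.25 to 0.53), or 1.31-fold. The young value rested on few oocytes. It was 0.25 without SN oocyte 33A, which held the 44.4 CPM, 0.31 without SN oocyte 21, and 0.317 without the run of oocytes 33 to 39, each under the limit (0.322).

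Set against their general counterparts in the same oocyte, both genes had higher pooled ratios in SN oocytes. Single oocytes overlapped except for Taf4b to Taf4 in old ones. These ratios were chosen after the levels were seen and do not depend on library size. The ratio of Taf4b counts to Taf4 counts had a lowest, median and highest value of 0.370, 0.731 and 1.26 in old NSN and of 1.6, 1.78 and 2.03 in old SN oocytes. It exceeded 1 in 4 of 37 old NSN and 8 of 8 old SN oocytes, without overlap. In young oocytes it exceeded 1 in 10 of 30 NSN and 9 of 12 SN oocytes, with pooled ratios of 0.890 (0.848 to 0.934) and 1.32 (1.23 to 1.42). The young oocytes ranged from 0.530 to 1.35 in NSN and from 0.723 to 2.20 in SN. The ratio of Tbpl2 to Tbp counts stayed below 1 in every oocyte. Pooled, it was 0.131 (0.124 to 0.139) in young NSN and 0.188 (0.173 to 0.205) in young SN oocytes. In old oocytes it was 0.126 (0.118 to 0.133) in NSN and 0.232 (0.208 to 0.258) in SN. Young oocytes ranged from 0.070 to 0.226 in NSN (median 0.135) and from 0.098 to 0.628 in SN (median 0.168). Old oocytes ranged from 0.054 to 0.208 in NSN (median 0.124) and from 0.115 to 0.378 in SN (median 0.223). The genes of a pair differ in length, so a ratio of 1 is not an equal number of transcripts.

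**Figure D2:**
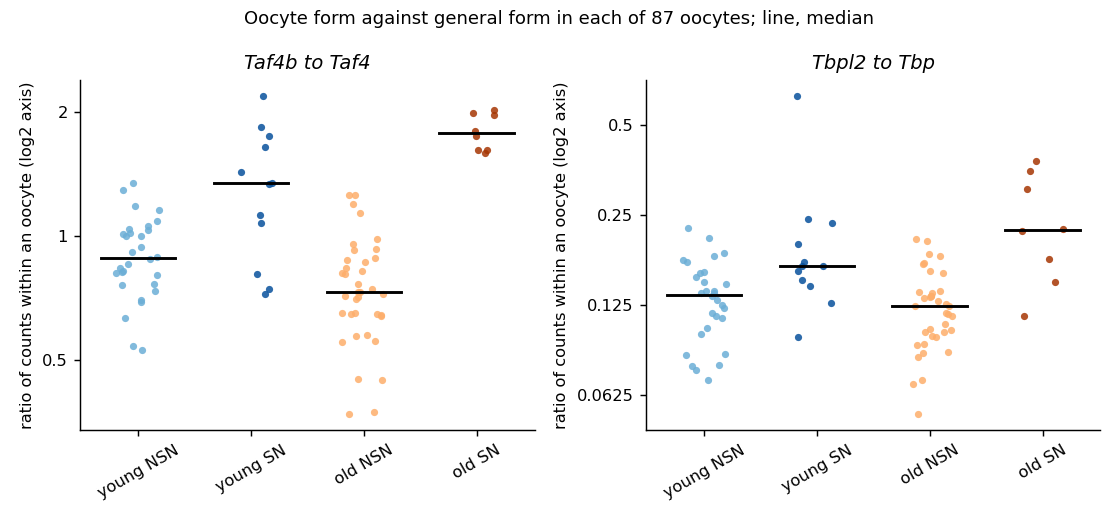
Ratio of counts within each of the 87 oocytes (log2 axes), Taf4b to Taf4 on the left and Tbpl2 to Tbp on the right, by age and configuration; lines are medians. For Taf4b to Taf4 the 8 old SN oocytes, from 1.6 to 2.03, lie above all old NSN oocytes, of which the highest is 1.26.

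Most of the remaining TFIID and TBP-family genes did not share this direction. Of 17 listed, 13 had a feature and 12 a mean count of 10 or more; none of the 12 was past the fold limit higher and 1 (Taf5) was lower in young SN oocytes, and 1 was higher (Taf8) and 1 lower (Taf13) in old SN oocytes. These were 1 of 12 and 2 of 12, against the 15.3% and 34.7% of all features past the limit. Of the 12, all but Taf1 and Taf2 averaged 100 or more counts, where the shares were 6.43% and 24.6%. The median log2 ratio of the 12 was -0.11 in young and -0.20 in old oocytes (SN over NSN), against 0.00688 and -0.00488 over all features. Among features with a mean of 100 or more counts the median was -0.0225 and -0.0458. The ratio was below 0 for 9 of the 12 in each age. Tbp, the general TATA-binding protein, stood at 97.0 CPM in young NSN, 88.8 in young SN, 109 in old NSN and 92.7 in old SN oocytes. Taf4, the counterpart of Taf4b, had 37.8 and 34.6 CPM in young and 39.9 and 33.3 CPM in old oocytes, NSN first. Among the other listed genes, Taf9b had a log2 ratio of -0.09 in both ages, Taf7 of -0.01 in young and 0.12 in old, and Taf12 of -0.01 and -0.28. Taf8 had the largest ratio, 0.22 in young and 0.41 in old oocytes, and the smallest were those of Taf5 in young (-0.33) and Taf13 in old oocytes (-0.38). Taf7l, known from testis, had a mean of 0.0575 counts per oocyte and no ratio.

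Nobox, the homeobox gene, was higher in SN oocytes in both ages. In old oocytes its lowest, median and highest values were 232, 333 and 495 CPM in NSN and 384, 492.9 and 599.5 CPM in SN oocytes. All 8 SN oocytes lay above the NSN median and 4 above every NSN oocyte. The pooled levels of 337 CPM (333 to 341) and 505 CPM (495 to 515) gave a log2 ratio of 0.58 (0.55 to 0.62), or 1.5-fold, with 9.52% of features at a larger ratio. In young oocytes the values were 271, 359.9 and 438 CPM in NSN and 328, 422 and 562 CPM in SN oocytes, and 5 of 12 SN oocytes exceeded every NSN oocyte. The young log2 ratio was 0.35 (0.33 to 0.38), or 1.28-fold. It came to 0.3218 without SN oocyte 21, just under the limit of 0.3219, and to 0.23 without the run of oocytes 17 to 24.

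Lhx8, the LIM homeobox gene, was nearly level. Its lowest, median and highest values were 112, 149.9 and 187 CPM in young NSN, 118, 158 and 169.8 CPM in young SN, 87.2, 147 and 173 CPM in old NSN and 134, 139 and 162 CPM in old SN oocytes. No SN oocyte exceeded every NSN oocyte in either age. The log2 ratio was 0.10 (0.06 to 0.15) in young and 0.01 (-0.04 to 0.07) in old oocytes, and 32.1% and 47.6% of features had larger ratios. Under TMM and median-of-ratios scaling the old value was -0.03 and -0.01 and the young value 0.08 and 0.09.

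Sohlh2 was lower in SN oocytes. In old oocytes its lowest, median and highest values were 4.46, 10.0 and 21.7 CPM in NSN and 2.94, 6.97 and 10.4 CPM in SN oocytes, and 1 of 8 SN oocytes exceeded the NSN median. The log2 ratio was -0.65 (-0.91 to -0.40), with NSN oocytes 1.57-fold higher, and 1.90% of features had a smaller ratio. It ranged from -1.33 to -0.33 when any 1 run of oocytes was left out. In young oocytes the values were 4.80, 8.94 and 16.2 CPM in NSN and 4.43, 6.99 and 9.28 CPM in SN oocytes, and 1 of 12 SN oocytes exceeded the NSN median. The young log2 ratio of -0.30 (-0.50 to -0.10) missed the fold limit; it was past it under TMM scaling (-0.33), without the run of oocytes 17 to 24 (-0.48) and without any 1 of the oocytes 2, 19A, 22A, 24A and 35A (-0.39 to -0.32).

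The runs of consecutive oocyte numbers, whose meaning the labels do not give, allowed the configurations to be compared within 6 sets. Taf4b, Tbpl2 and Nobox were each higher in SN than in NSN oocytes in 6 of 6 runs, with log2 ratios of 0.24 to 1.15, 0.27 to 1.15 and 0.11 to 0.66. Sohlh2 was lower in SN oocytes in 5 of 6 runs (-1.45 to 0.03). The exception was the run of old oocytes 41 to 48, where it stood at 9.39 CPM in 3 SN and 9.21 CPM in 12 NSN oocytes. Lhx8 was higher in 4 and lower in 2 runs (-0.11 to 0.19). A run held between 1 and 6 SN oocytes. The share of all features with one direction in 6 of 6 runs was not computed. Since the configurations came from the same transcriptomes, whether such a count is unusual was not tested.

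**Figure D3:**
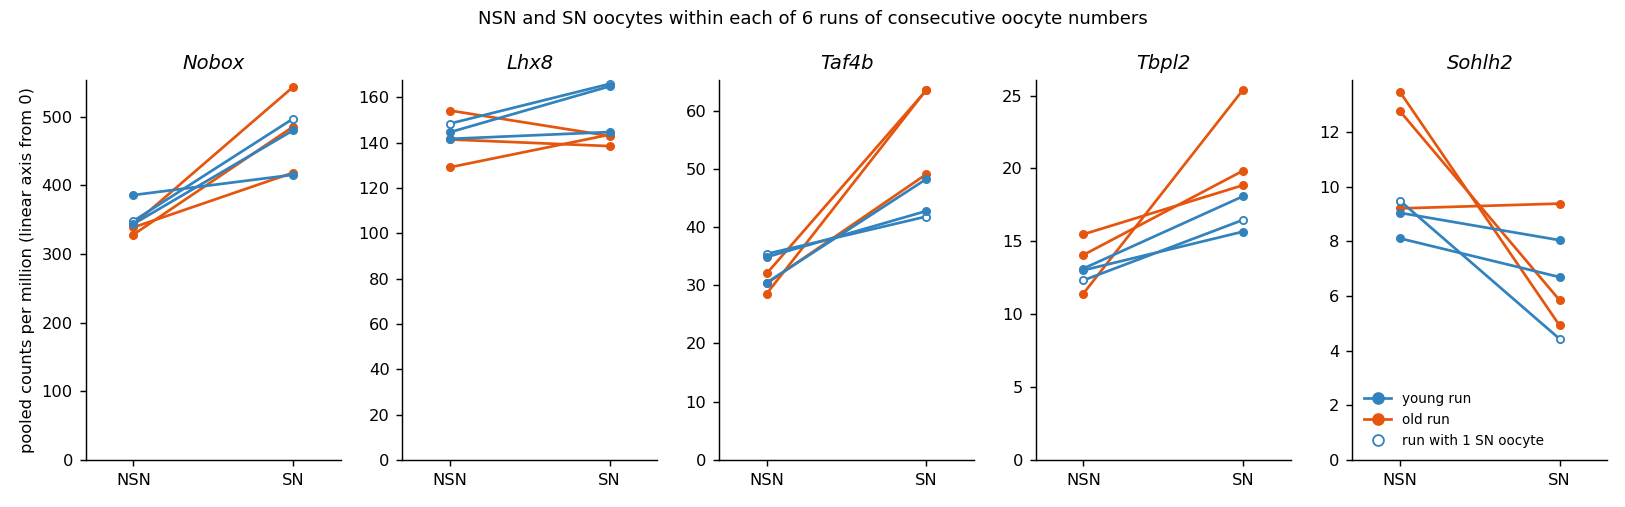
Pooled CPM (linear axes from 0) of NSN and SN oocytes, joined by a line within each of 3 young (blue) and 3 old (orange) runs of consecutive oocyte numbers; the open symbols mark the run with 1 SN oocyte. All 6 lines go up for Nobox, Taf4b and Tbpl2, 5 of 6 go down for Sohlh2, and those of Lhx8 cross.

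Genes known to need these factors in mouse oocytes were mixed. All 13 listed had a feature with a mean count of 10 or more, the lowest being Fgf8 at 125. In young oocytes 1 (Zp2) was past the fold limit higher and 0 lower in SN, against 10.9% and 4.38% of all features. In old oocytes, where 20% of features were past it higher and 14.7% lower, 7 were higher (Zp1, Zp2, Zp3, Gdf9, Bmp15, Dnmt1 and Kit) and 4 lower (Mos, Rfpl4, Fgf8 and H1foo). The median log2 ratio was 0.16 in young and 0.34 in old oocytes, against 0.00688 and -0.00488 over all features. Zp2, a zona pellucida gene and target of FIGLA, had the largest ratio in each age, 0.35 and 0.75, at 3090 CPM in young NSN, 3949 in young SN, 2624 in old NSN and 4419 in old SN oocytes. Gdf9, a growth factor sent by the oocyte to granulosa cells, had 4217, 5236, 3953 and 5475 CPM in these groups, and Bmp15, its relative, had 3812, 4271, 3358 and 4243 CPM. H1foo, the oocyte linker histone, went the other way, with 2985, 2743, 3266 and 2497 CPM. The smallest ratios were those of Mos, the kinase that holds eggs in metaphase II, in young (-0.22) and of Fgf8 in old oocytes (-0.41), which had 43.4, 39.3, 48.3 and 36.4 CPM in the same groups.

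**Figure D4:**
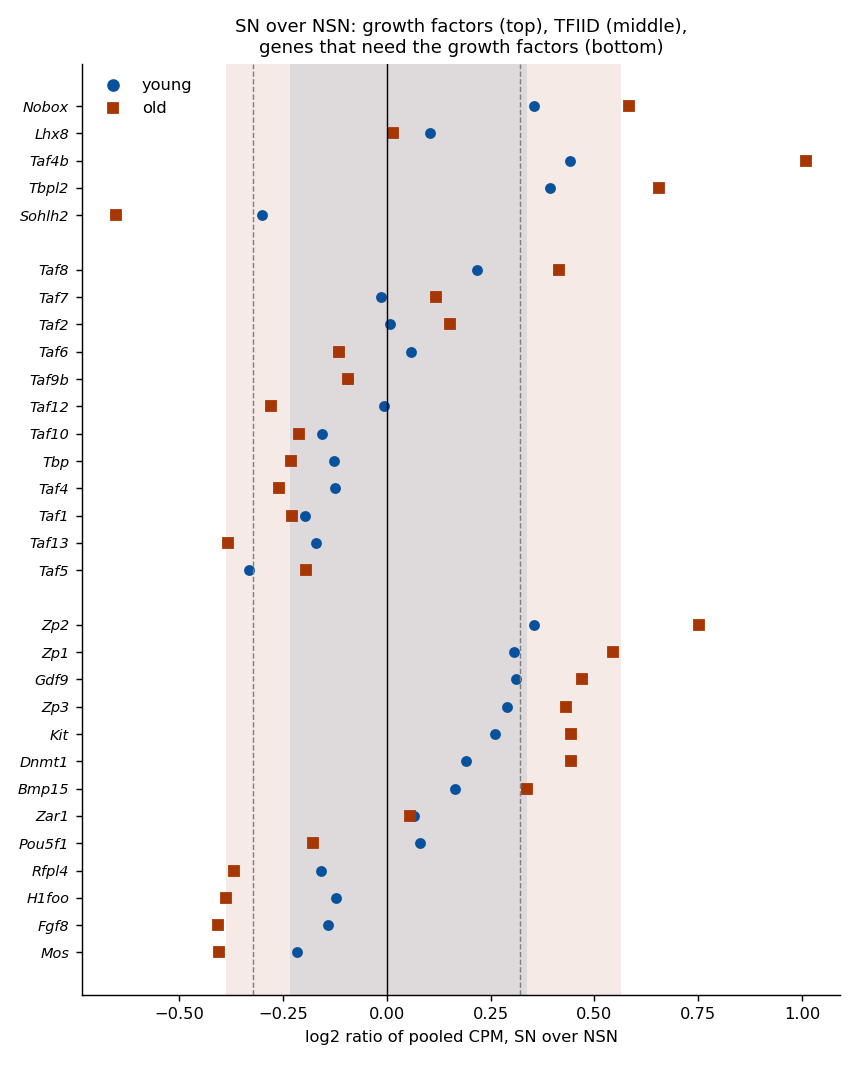
Log2 ratio of pooled CPM, SN over NSN, in young (blue circles) and old (brown squares) oocytes for 5 members (top), 12 TFIID and TBP-family genes (middle) and 13 genes known to need the factors (bottom); shading spans the 10th to 90th percentile of all 12408 features in each age and dashed lines mark the fold limit. Taf4b reaches 1.01 in old oocytes and Sohlh2 -0.65, while most TFIID genes lie left of 0.

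Among binding partners, all 7 listed had a feature and 6 a mean count of 10 or more. Tcf12, a bHLH partner of the E-protein class, was past the fold limit higher in SN oocytes in both ages (log2 ratio 0.33 in young and 0.94 in old), at 12.0, 15.1, 10.9 and 20.8 CPM in young NSN, young SN, old NSN and old SN oocytes. Gtf2a2, the small TFIIA subunit, was lower in both (-0.35 and -0.54), and Ldb1 and Ldb2, cofactors of LIM proteins, were lower in old SN oocytes (-0.50 and -0.74). In all, 2 of 6 were past the limit in young and 4 of 6 in old oocytes, against 15.3% and 34.7% of all features, and the median log2 ratio was -0.02 in young and -0.28 in old oocytes, against 0.00688 and -0.00488. Gtf2a1, the large TFIIA subunit precursor, had ratios of -0.09 and -0.06, and Tcf3 of 0.05 and 0.12. Tcf4 had a mean of 5.63 counts per oocyte and no ratio. The young Tcf12 ratio (0.332) was close to the limit (0.322). TMM and median-of-ratios scaling moved the young ratios by -0.028 and -0.012, and each shift brings Tcf12 under the limit. Of the 3 further genes named with these factors in oocyte growth, Stat3 was past the fold limit higher in old SN oocytes (log2 ratio 0.41) but not in young ones (0.29), and Sub1 was past it in neither age (-0.07 and -0.06); Dynll1 had no feature by the rule.

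With age, the members differed little when configurations were pooled. Of the 5, 1 (Sohlh2) was past the fold limit between old and young oocytes, and 4.51% of all features were. Sohlh2 had a lowest, median and highest value of 4.43, 8.31 and 16.2 CPM in young and of 2.94, 9.36 and 21.7 CPM in old oocytes. The pooled levels were 8.55 CPM (8.06 to 9.06) and 10.9 CPM (10.3 to 11.5), a log2 ratio of 0.35 (0.23 to 0.46) or 1.27-fold, and 0.798% of features had a larger ratio. The other 4 lay between -0.08 and 0.12. The ratio of Nobox was -0.065 and stayed below 0 in 8 of 11 alternatives. It was above 0 with all 88 oocytes (0.015), in oocytes named without the suffix A (0.026) and in SN oocytes (0.15). Nobox stood at 384 CPM (380.2 to 387) in young and 367 CPM (363 to 370.2) in old oocytes, Lhx8 at 149 and 141 CPM, Taf4b at 37.1 and 35.9 CPM and Tbpl2 at 13.9 and 15.0 CPM.

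The Sohlh2 difference rested on the upper end of the old oocytes. Of 45 old oocytes, 8 lay above every young oocyte, between 17.4 and 21.7 CPM, and 2 lay below every young oocyte. The 8 were all NSN oocytes, 5 from the run of oocytes 9 to 16, 3 from the run 25 to 31 and 0 from the run 41 to 48. Their total counts ran from 976456 to 4242883. Without the run 9 to 16 the log2 ratio was 0.28, without the run 25 to 31 also 0.28, and without the run of young oocytes 33 to 39 again 0.28, each below the fold limit. It was 0.49 without the run 41 to 48, and between 0.29 and 0.31 without any 1 of the old oocytes 16A, 26, 28 and 30. In oocytes named with the suffix A it was 0.30, under the limit, and 0.38 in those without. From the median over oocytes it was 0.17, also under the limit.

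Within NSN oocytes, 1 of 5 members (Sohlh2) was past the fold limit between ages, against 5.89% of features, with a log2 ratio of 0.36 (0.23 to 0.49). It was below the limit without old oocyte 26 or 28 (0.32 and 0.31) and without the old run 25 to 31 (0.25), the old run 9 to 16 (0.30) or the young run 33 to 39 (0.318). Taf4b was slightly lower in old NSN oocytes (log2 ratio -0.14, -0.22 to -0.07), and 11 of 37 old NSN oocytes lay below every young NSN oocyte. The other ratios were -0.08 for Nobox, -0.05 for Lhx8 and 0.10 for Tbpl2.

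Within SN oocytes, 2 of 5 members were past the fold limit higher in old than in young oocytes, against 16% of features in either direction. Taf4b had a log2 ratio of 0.42 (0.32 to 0.53), or 1.34-fold, and all 8 old SN oocytes lay above the young SN median; without any single oocyte the ratio stayed between 0.38 and 0.49. Tbpl2 had a log2 ratio of 0.36 (0.18 to 0.54). It was below the limit without old oocyte 46 (0.22) or 26A (0.30), without young oocyte 38 (0.29) or 22A (0.299), and without the old run 25 to 31 (0.23) or the young run 17 to 24 (0.26). Nobox was at 0.15, Lhx8 at -0.14 and Sohlh2 at 0.01; without the old run 41 to 48 Sohlh2 was at -0.49 and past the limit. Whether the difference between configurations itself differed between ages was not tested.

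Compared over runs, no member had its 3 young and 3 old runs apart, with configurations pooled, whereas 13.3% of the features did. In NSN oocytes alone Nobox was the only member of 5 with its runs apart, against 13.1% of features. The pooled Nobox level was 353, 398 and 399 CPM in the young runs of oocytes 1 to 7, 17 to 24 and 33 to 39, of which 1 of 14, 5 of 15 and 6 of 13 oocytes were SN. In NSN oocytes the 3 young runs spanned 344 to 386 CPM and the 3 old runs 328 to 343 CPM, so that they were narrowly apart. Lhx8 spanned 143 to 153 CPM over the young and 132 to 153 CPM over the old runs, and Sohlh2 spanned 7.51 to 9.31 CPM and 9.25 to 12.1 CPM.

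The spread between oocytes differed among the members. After removal of the part that counting alone gives, the squared coefficient of variation of Lhx8 was 0.0127 in young and 0.0129 in old oocytes, below the medians of 0.0226 and 0.0327 for features with a mean count of 100 to 1000, and 16.3% and 6.04% of those features had a smaller one. Taf4b, in the same class, had 0.0672 and 0.140, above 92.6% and 96.5% of the class. Within NSN oocytes it came to 0.0246 in young and 0.0451 in old oocytes, above 62.9% and 72.7% of the class. Nobox had 0.0269 and 0.0488, and within NSN oocytes 0.0144 and 0.0239, close to the class medians of 0.0149 and 0.0254. Sohlh2 went from 0.0532 in young to 0.180 in old oocytes, where the medians of its class, 10 to 100 counts, were 0.0614 and 0.0803. With every library thinned to 900000 counts the Sohlh2 values were 0.0719 and 0.138. Without thinning, Sohlh2 had 0.0501 and 0.150 within NSN oocytes, where the class medians were 0.0525 and 0.0731. Tbpl2 had 0.156 in young and 0.113 in old oocytes, but without young SN oocyte 33A the young value was 0.0502, below the old one. It had 0.0326 and 0.0445 within NSN oocytes. The oocytes of an age share their mice, so this spread mixes oocytes and animals.

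Across the 87 oocytes the members followed one another weakly. The highest Spearman rho of CPM between members was 0.47, of Nobox with Taf4b, and within the 67 NSN oocytes it was 0.19. Tbpl2 had a rho of 0.30 with Taf4b and 0.28 with Nobox (0.09 and 0.10 within NSN), and Sohlh2 of -0.25 with Taf4b (0.01 within NSN). Within NSN oocytes the highest was that of Nobox with Lhx8, 0.24, against 0.27 over all oocytes. Among 10323 features with a mean count of 20 or more, the named features most like Nobox were Zp3 (0.78), Slc18a1 (0.78) and Serpinc1 (0.78), with 0.70, 0.64 and 0.66 within NSN oocytes. Those most like Lhx8 were Dlgap5, Rbpms2 and Nsf (0.63, 0.61 and 0.61, and within NSN 0.62, 0.58 and 0.59). Taf4b was closest to Tpmt, Sbno1 and Bzw1 (0.73, 0.73 and 0.70, and within NSN 0.53, 0.56 and 0.48). Tbpl2 was closest to Gtf2a1l, Plpp3 and Rnf41 (0.50, 0.48 and 0.47, and within NSN 0.37, 0.35 and 0.35). Sohlh2 was closest to A730081D07Rik, Ccnl1 and Tcl1b3 (0.51, 0.50 and 0.49, and within NSN 0.44, 0.42 and 0.33). The points share age, configuration and library, and the rho of the members with the total count lay between -0.08 and 0.07.

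**Figure D5:**
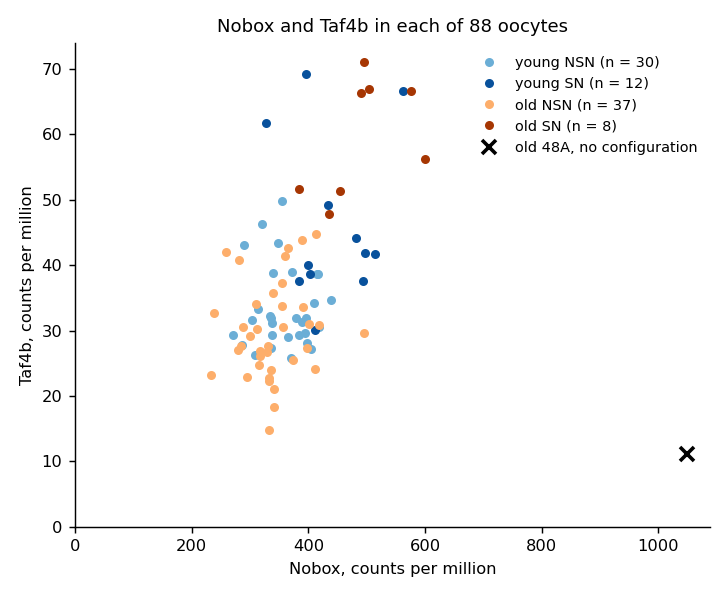
Taf4b against Nobox, both as CPM on linear axes, in each of the 88 oocytes, coloured by age and configuration; the cross is old oocyte 48A, which had no configuration. SN oocytes lie towards the upper right, and oocyte 48A lies apart, at 1049 CPM of Nobox and 11.1 CPM of Taf4b.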

How the data were processed

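RNA libraries of 88 single GV oocytes, made by Smart-seq2 on oligo-dT beads in the scM&T-seq protocol, were analysed from 1 table of raw counts. The authors trimmed single-end reads with Trim Galore, aligned them to GRCm38 with HiSat2 and counted primary alignments per feature of a transcriptome assembled from mouse oocytes; the deposited counts are per feature and oocyte, without molecular identifiers. The counting program and strand setting are not given in the sources used here. Names came from the study's named features, otherwise from overlap with GENCODE M21, and configurations from the study. No column was left unused.

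Counts were scaled to CPM by each oocyte's total and pooled by group (Python 3.11.15, numpy 2.4.6, scipy 1.17.1, pandas 2.3.3). Ratios were computed for features with a mean count of 10 or more and called past a 25% difference. Alternatives used edgeR 4.0.16 (TMM), median-of-ratios factors, thinning to 900000 counts, other averages, and subsets of oocytes; leaving out single oocytes or runs in every comparison, within-run values and within-oocyte ratios were added after the data were seen. Statistics were tested on simulated data. Old oocyte 15 had a total that differed from the one the study lists. Members and lists were chosen with earlier results of these data known. Named were the 7 members, in each list the 4 highest, the lowest detected and the extreme ratios, and the 3 features most like each member by Spearman rho.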

Additional observations from a re-analysis of the deposited data

Results flagged for a closer look

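Old oocyte 48A, the only library of the 88 with no configuration, entered no main comparison. The study excluded a single oocyte, not named in its methods, as an outlier in a distance matrix. Oocyte 48A entered only the alternative of old over young with all 88 oocytes. The Nobox log2 ratio was then 0.015, against -0.065 without oocyte 48A. Oocyte 48A held Nobox at 1049 CPM (3763 of 3588332 counts), above the highest of the 42 young oocytes (562 CPM) and the highest of the 45 other old oocytes (599.5 CPM). Its Taf4b level of 11.1 CPM was below all 45 other old oocytes, whose lowest was 14.8 CPM. Lhx8 at 123 CPM, Sohlh2 at 5.85 CPM and Tbpl2 at 20.3 CPM lay within the range of the old oocytes, and Sohlh1 had no count. Among oocyte genes outside the members, Zp3 (3812 CPM) and Gdf9 (9682 CPM) were also above every other old oocyte, as was Tbp (154 CPM), whereas Taf4 (20.1 CPM) was below them all. In the group of 8 old SN oocytes, the only one of 4 to 10 oocytes, no lowest or highest value of the 5 members was farther from its neighbour than Dixon's 95% limit allows.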

How the results depend on the processing

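The log2 ratios of 5 members were recomputed under 11 alternatives each for old over young and for SN over NSN, and 95 of the 110 values moved by no more than 0.1 or their counting interval; no value called past the fold limit changed sign. For old over young, the median over oocytes gave -0.17 for Nobox and 0.17 for Sohlh2, and SN oocytes alone gave 0.15 for Nobox, 0.0095 for Sohlh2, 0.36 for Tbpl2 and 0.42 for Taf4b. Leaving out 1 run at a time moved Sohlh2 between 0.28 and 0.49. For SN over NSN, old oocytes gave 0.58 for Nobox, 0.65 for Tbpl2, 1.01 for Taf4b and -0.65 for Sohlh2, and young oocytes 0.44 for Taf4b and -0.30 for Sohlh2. Names with suffix A gave 0.32 and those without 0.57 for Nobox, and the median over oocytes 0.31 for Tbpl2. The cause was not tested. TMM and median-of-ratios scaling moved the median of all features by at most 0.04. The share of features past the fold limit fell with the minimum mean count, from 1 to 100: for old over young from 16% to 0.988%, in NSN oocytes alone from 19.03% to 1.34% and in SN oocytes from 32.4% to 4.81%, and for SN over NSN from 29.4% to 6.43% in young and from 46.3% to 24.6% in old oocytes. No paired analysis was possible because young and old oocytes share no numbers and the values come from no test. Depth limits Sohlh1, and unnamed mice limit every comparison of ages.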
